A study of Homo sapiens with 16 samples.

Results

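The integrin and laminin genes of MDA-MB-231 cells are described here, across 16 RNA sequencing libraries. Members were all protein-coding genes whose symbol named an integrin alpha chain, an integrin beta chain, the integrin-like ITGBL1 or a laminin chain. There were 39 of them among the 60719 gene identifiers in the count tables, 27 integrin genes and 12 laminin genes. MDA-MB-231 is an established line from a breast cancer without hormone receptors or ERBB2 amplification. The parental MDA-MB-231 cells (parental cells) were unedited, and TXNIP knockout (TKO) cells carried a CRISPR/Cas9 deletion of TXNIP, the thioredoxin interacting protein. Knockout clones had been grown from single cells, so a difference between the populations and a difference between clones cannot be told apart. Untreated parental and untreated TKO cells had 2 replicates each. Both kinds of cell were also treated for 48 hours with a non-targeting siRNA (+siNT) or with an siRNA against Myc (+siMyc), with 3 replicates in each of these 4 groups. Apart from siRNA, every group was grown in the same medium.

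Integrins are cell surface receptors made of an alpha and a beta chain, which bind the extracellular matrix or other cells outside and link to actin or keratin filaments inside. ITGB1 pairs with most alpha chains, ITGB4 pairs with ITGA6 alone, and ITGAV pairs with several beta chains into receptors for the RGD motif of fibronectin and vitronectin. Laminins are secreted trimers of an alpha, a beta and a gamma chain that build basement membranes, and they are the ligands of the receptors with ITGA3, ITGA6 or ITGA7. Breast epithelium rests on a laminin-rich basement membrane, and the hemidesmosome, which holds ITGA6 and ITGB4, binds laminin-332.

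Myc with its partner Max binds the E-box CACGTG, so the RefSeq promoter windows of the members, 250 bases before to 50 bases after a gene start, were searched for these letters. The motif reads alike on both strands. The table held 34 windows for 27 members. It had no entry for 12 members, among them ITGA3, ITGA7, ITGAX, ITGB2, ITGB3, ITGB4 and LAMA1. CACGTG was found in 1 of the 34 windows (2.94%), and in 2548 of all 35116 promoter windows (7.26%). The match lay 101 bases before a start of ITGA6, the alpha chain of the hemidesmosome integrin. It is shown because ITGA6 had the highest level per kilobase of the members that differed between the untreated populations. The stretch around it is chr2:172427208-172427267 of GRCh38.p14, on the plus strand, with the motif in capitals.
ITGA6: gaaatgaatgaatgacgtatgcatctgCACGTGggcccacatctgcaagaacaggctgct

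Total counts lay between 18953668 and 59799444 per library. Reads were counted one by one in untreated libraries and as pairs in those with siRNA, and the siRNA libraries of parental cells were counted on a later Ensembl release than all others. MDA-MB-231 cells are known for VIM, CD44, MSN, AXL and CAV1, and all 5 were high, with a summed level of at least 5211 CPM in every library (CPM is the count scaled to the library size, with edgeR's TMM factors). ESR1 and PGR, the hormone receptor genes, stayed at or below 0.298 and 0.0819 CPM. ERBB2, EPCAM and CDH1, also listed as low or absent, were not near 0 in every library. ERBB2 was at 74.3 to 106.6 CPM and EPCAM at 11.9 to 32.0. CDH1 was at 4.04 to 9.40 CPM in parental cells and at 0.274 to 1.08 in TKO. TXNIP, which was not a member, was at 276 and 277 CPM in untreated parental cells and at 12.7 and 46.5 in untreated TKO. It lay between 296 and 470 CPM in the siRNA libraries of parental cells and between 6.70 and 10.1 in those of TKO. MYC was lower after siMyc, by 1.21 on the log2 scale in TKO and by 0.96 in parental cells. Parental+siNT replicate 1 and parental+siMyc replicate 3 stood apart from their groups in the same way, with a correlation of 0.90 between their deviations from the group means. MYC was at 123 CPM in the first and 67.3 CPM in the second, as in the rest of their groups. The untreated TKO replicates also lay far apart.

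A member was called expressed when its mean was at least 1 CPM in at least 1 of the 6 groups. By this rule 27 members were expressed, 17 integrin genes and 10 laminin genes. The expressed members with the lowest peak were ITGA7, LAMA2 and LAMA4, at group means of up to 2.11, 2.14 and 2.16 CPM. Just below the rule lay ITGAM, at up to 0.570 CPM. Of all 39 members, 9 were at 100 CPM or more in every library, and 5 had at most 3 counts in any library.

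**Figure D1:**
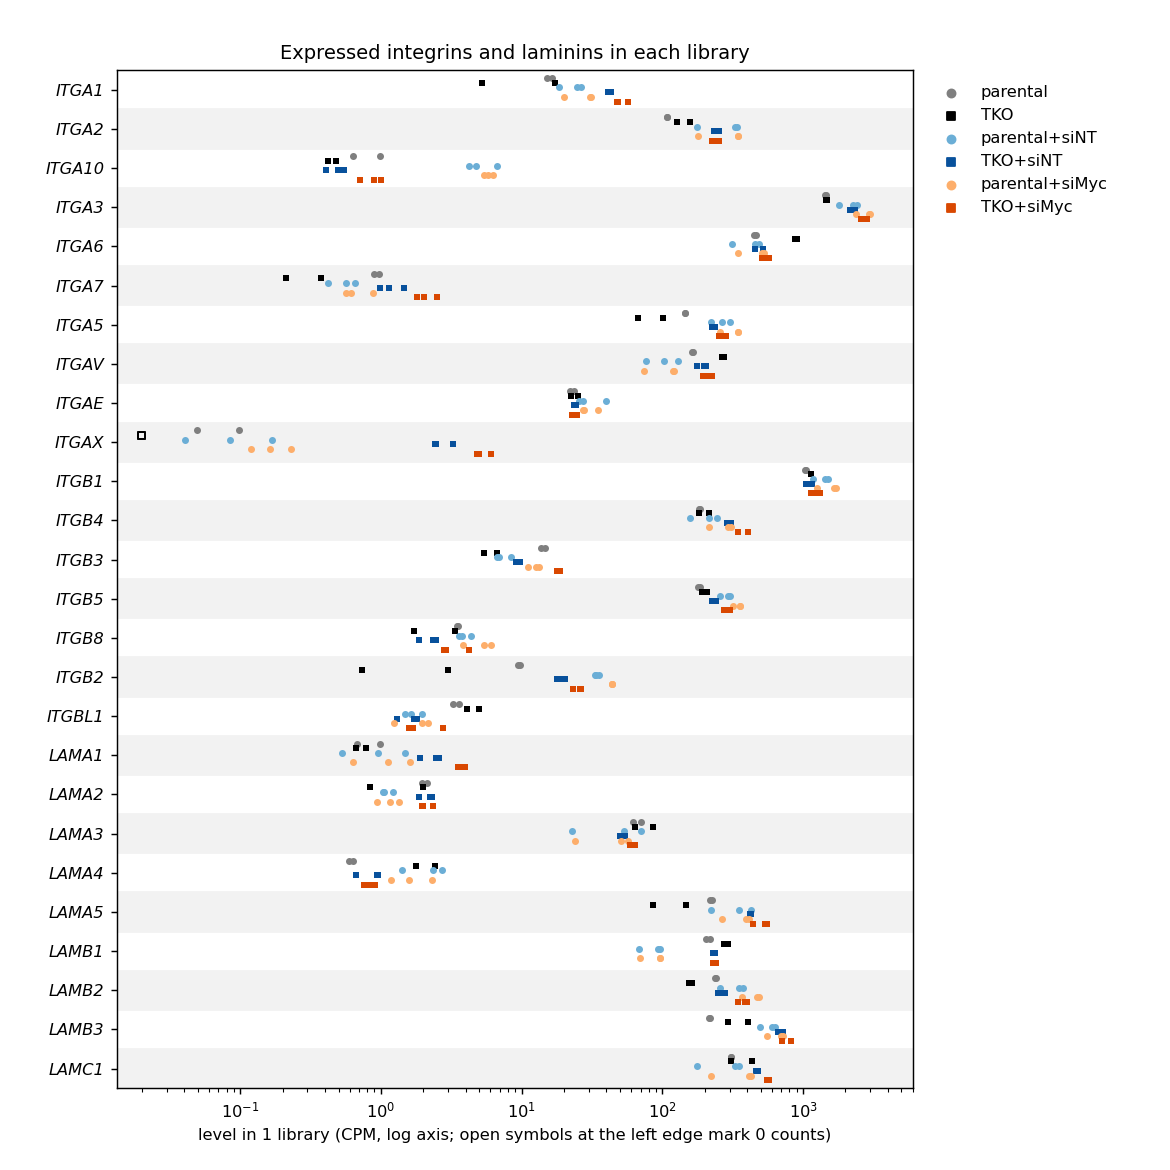
Levels of 26 expressed members in each of the 16 libraries, in CPM on a log axis, with circles for parental cells, squares for TKO and colours for the treatment. ITGA3 lay at 1440 CPM or more in every library, and the open squares mark the 0 counts of ITGAX in both untreated TKO libraries.

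Per kilobase of gene model, ITGA3 had the highest level of all members in every group. It is the alpha chain of a laminin-332 and laminin-511 receptor, and its group means lay between 147 and 283 CPM per kb. ITGB1, its beta chain, was at 71.5 to 106 CPM per kb and ITGA6 at 62.4 to 133. The hemidesmosome chain ITGB4 was at 27.3 to 57.2 CPM per kb. Of the chains that form fibronectin and vitronectin receptors, ITGA5 was at 11.4 to 42.9, ITGAV at 12.5 to 32.7 and ITGB5 at 28.2 to 52.7 CPM per kb. All of these were below ITGA3, ITGB1 and ITGA6 in every group. ITGB5 was above ITGB4 in both untreated groups and in both siRNA groups of parental cells. ITGA2, a collagen receptor chain, was at 13.7 to 36.6. The remaining integrin genes stayed under 7 CPM per kb in every group, and ITGA3, ITGA6 and ITGB1 therefore stood well above them.

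Among laminin chains LAMB3, the beta chain of laminin-332, was highest per kilobase, at 46.5 to 168 CPM per kb. LAMC1, the gamma chain of most laminins, was at 33.9 to 66.4 and LAMB2 at 23.2 to 64.3. The alpha chains separated into those present and those near absent. LAMA5 was at 8.12 to 35.6 CPM per kb and LAMA3 at 3.04 to 5.17, whereas LAMA1, LAMA2 and LAMA4 stayed at or below 0.233, 0.207 and 0.181. LAMA3 was far below LAMB3 in every group. For laminin-511 the lowest chain was LAMA5 in untreated TKO, at 8.12 CPM per kb, and LAMB1 in the other 5 groups, at 4.60 to 12.7. For laminin-521 it was LAMA5 in every group. The gene model of LAMB1 was 18592 bases long and that of LAMB2 6865. In untreated parental cells LAMB1 and LAMB2 were at 210.7 and 237.5 CPM, but at 11.3 and 34.6 CPM per kb. The rank of a chain within a trimer therefore depends on these lengths. Trimers with LAMA1, LAMA2 or LAMA4 had that alpha chain as the lowest one in every group. These are mRNA levels, and secreted laminin was not measured here.

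**Figure D2:**
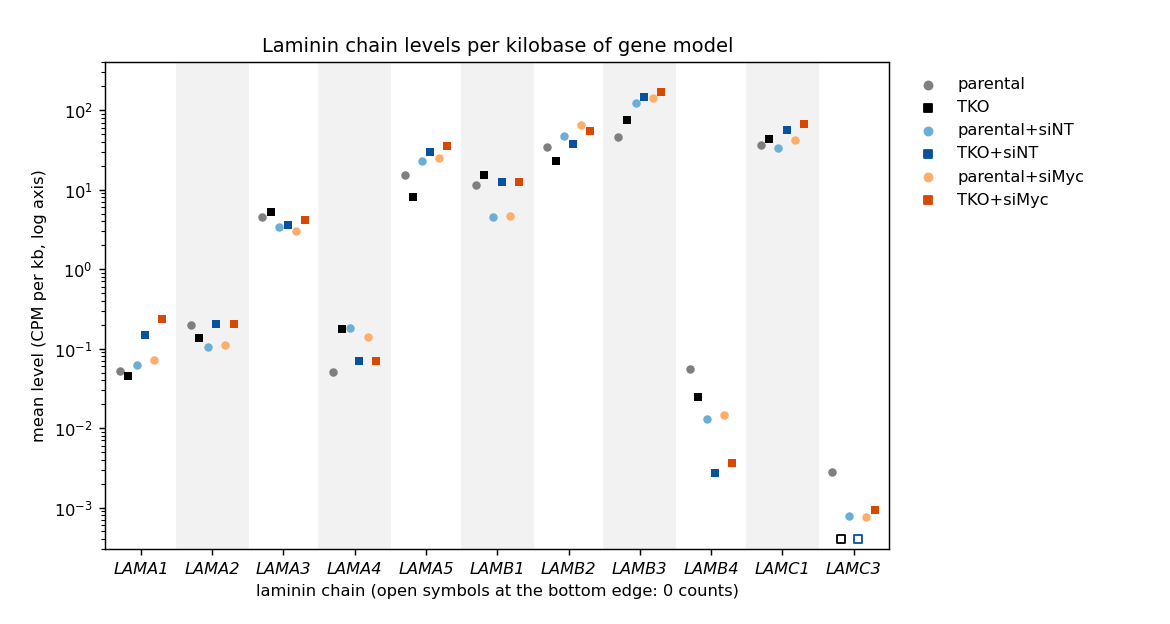
Mean level of 11 laminin chains in each of the 6 groups, in CPM per kb on a log axis. LAMB3 reached 168 CPM per kb in TKO+siMyc, and LAMA1, LAMA2 and LAMA4 stayed below 0.24 in every group.

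The 12 members under the rule were the integrin genes ITGA2B, ITGA4, ITGA8, ITGA9, ITGA11, ITGAD, ITGAL, ITGAM, ITGB6 and ITGB7 and the laminin genes LAMB4 and LAMC3. ITGA4, ITGA8, ITGA11, ITGAL and LAMC3 were those with at most 3 counts in any library. Of these 12, 2 were called higher and 2 lower in TKO+siNT against parental+siNT among the 8 with enough counts for the test. Over all genes 16.1% were called higher and 20.7% lower there. Between the populations after siMyc 3 of 8 were called higher and 2 lower, where 18.8% and 21.7% of all genes were. In the untreated libraries 0 of 3 tested were called. The platelet integrin chain ITGA2B reached 0.547 CPM in 1 library of untreated parental cells, where all 4 platelet markers were at 0. After siNT, ITGAM, the alpha chain of a leukocyte complement receptor, was at 0.280 to 0.546 CPM in TKO+siNT and at 0.0209 to 0.0610 in parental+siNT.

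The first comparison asked how the untreated populations differed. ITGA6 and LAMA4 were higher in untreated TKO cells and ITGB3 was lower, and these were the largest changes past the threshold. ITGAV and LAMB1 were also higher and LAMB2 was also lower. A gene was called where edgeR's quasi-likelihood test gave an adjusted p no higher than 0.05. Of the 26 expressed members with enough counts for the test, 4 were called higher and 2 lower, or 6 in all, where 9.61% of all genes were called, 5.43% as higher and 4.18% as lower. The median log2 change of the members was -0.03, against 0.01 over all genes tested. The expressed members split evenly, with 12 above and 14 below 0, and ITGAX had too few counts to be tested. The study calls the replicates biological, and p-values measure the spread between them. That spread was unequal. The chi-square of the counts divided by its degrees of freedom was 2.015 between the parental replicates and 38.84 between the TKO replicates. Among siRNA libraries it was 2.19 for TKO+siMyc replicates 1 and 2 and 99.21 for parental+siNT replicates 1 and 3. Whether the closest replicates carry the spread between separate cultures was not tested.

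ITGA6 (ENSG00000091409, chromosome 2, 172427354 to 172506459) was at 464 and 447 CPM in parental cells and at 908 and 876 in TKO. Both knockout libraries lay far above both parental libraries, and the replicates of each group lay close together. The log2 change of ITGA6 was 0.90 (standard error 0.06, adjusted p = 0.00493 by edgeR). In bulk RNA, fewer cells with a transcript and less of it per cell cannot be told apart. ITGAV (ENSG00000138448, chromosome 2, 186590056 to 186680901), the shared alpha chain of RGD receptors, was at 165 and 163 CPM in parental cells and at 263 and 274 in TKO, a log2 change of 0.64 (standard error 0.06, adjusted p = 0.00936). Both genes lie in a stretch of chromosome 2 where other genes were also higher. The 76 non-member genes within 10 Mb of ITGA6 at 1 CPM or more had a median log2 change of 0.48, and the 56 near ITGAV one of 0.41. When the median shift of each 20 Mb window was taken out, ITGA6 stood at 0.45 (adjusted p = 0.0114) and ITGAV at 0.17 (adjusted p = 0.127). What part these neighbours share with the changes of ITGA6 and ITGAV was not tested further.

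LAMA4 (ENSG00000112769, chromosome 6, 112107931 to 112254939) is an alpha chain of vascular and mesenchymal basement membranes. It was at 0.596 and 0.633 CPM in parental cells and at 2.43 and 1.79 in TKO. The level was low in both populations and the groups did not overlap. Its log2 change was 1.70 (standard error 0.31, adjusted p = 0.0354). LAMB1, the beta chain of laminin-111 and laminin-511, went from 217 and 205 CPM to 274 and 292, a log2 change of 0.35 (standard error 0.07, adjusted p = 0.0407). LAMB2, the beta chain of synaptic and kidney laminins, went from 235 and 240 CPM to 156 and 162, a log2 change of -0.65 (standard error 0.06, adjusted p = 0.00918). LAMB1 and LAMB2 thus moved in opposite directions, and LAMB3, at 214 and 218 CPM in parental cells and at 404 and 292 in TKO, had a log2 change of 0.61 (adjusted p = 0.0953). ITGB3, the beta chain of the vitronectin receptor, was at 14.7 and 13.6 CPM in parental cells and at 6.74 and 5.37 in TKO, a log2 change of -1.30 (standard error 0.16, adjusted p = 0.0150).

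Several members had large changes that did not pass the test, and their levels differed between the untreated TKO replicates. ITGB2, the leukocyte beta chain, was at 9.74 and 9.49 CPM in parental cells and at 2.97 and 0.736 in TKO (log2 change -2.44, standard error 0.63, adjusted p = 0.0934). LAMA5, the main alpha chain of adult epithelial basement membranes, was at 217 and 225 CPM and at 147 and 85.5 (adjusted p = 0.0959 by edgeR). ITGA1, a collagen receptor chain, was at 15.2 and 16.4 CPM and at 17.4 and 5.19. For these genes the parental libraries lay close together and the knockout libraries did not. All 6 calls were lost when either parental library was left out, and 21 and 16 members were called when TKO replicate 1 or replicate 2 was left out. Over all genes the calls were also lost without either parental library, and they numbered 7002 and 6797 without TKO replicate 1 or 2, against 1919 with all 4 libraries.

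The same populations were compared after siNT. In these libraries LAMB1, ITGAV, ITGA1, LAMA1 and ITGAX were higher in TKO and ITGA10, LAMA4, ITGB2 and ITGB8 were lower. All 27 expressed members were tested, and 10 were called higher and 6 lower. Over all genes, 36.8% were called, 16.1% as higher and 20.7% as lower. Of the 10 laminin genes 5 were higher and 1 was lower, with a median log2 change of 0.39, and of the 17 integrin genes 5 were higher and 5 were lower, with a median of -0.10. The median over all genes tested was -0.03. The annotation release used for counting differed between these groups as well, and its part cannot be told apart from that of the population, although 38 of 39 members had the same length in both releases. Leaving out parental+siNT replicate 1, which stood apart, gave 11 higher and 10 lower, while the genes called went from 8578 to 10875, with 5060 higher and 5815 lower.

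LAMB1 (ENSG00000091136, chromosome 7, 107923799 to 108003213) had the clearest difference among the abundant members. It was at 67.95, 96.1 and 92.4 CPM in parental+siNT and at 232, 228 and 239 in TKO+siNT. The highest parental library lay far under the lowest knockout library. The log2 change was 1.42 (standard error 0.13, adjusted p = 7.31e-06 by edgeR). ITGAV was at 76.9, 129 and 103 CPM in parental+siNT and at 196, 176 and 203 in TKO+siNT, a log2 change of 0.87 (standard error 0.16, adjusted p = 0.00198). It stood at 0.54 (adjusted p = 0.0101) with the regional shifts taken out. ITGAV and LAMB1 were the members called higher both in the untreated and in the siNT libraries.

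ITGAX (ENSG00000140678, chromosome 16, 31355134 to 31382999) codes for the alpha chain CD11c of leukocytes. It was at 0.0843, 0.0407 and 0.167 CPM in parental+siNT, where 3 counts correspond to about 0.0609 to 0.0622 CPM, and at 2.44, 2.43 and 3.26 in TKO+siNT. The gene was near the limit of detection in the parental cells and low but clearly present in the knockout cells. This is a log2 change of 4.74 (standard error 0.34, adjusted p = 1.58e-06). ITGAM, which ends at 31332892 on the same chromosome, just before ITGAX, had a log2 change of 3.23 (standard error 0.54, adjusted p = 0.000785). ITGAD, which starts at 31393335 just after it, had one of -3.19 (standard error 0.91, adjusted p = 0.0175), with a mean of 0.202 CPM in parental+siNT. In untreated TKO libraries ITGAX had 0 counts, against 0.0497 and 0.0973 CPM in parental cells, so no fold change is given there.

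Since leukocytes use ITGAX, ITGAM and ITGB2, the levels of 6 leukocyte markers were read beside them. The summed level was 16.6 to 22.6 CPM in parental+siNT and 5.45 to 5.86 in TKO+siNT, a direction opposite to that of ITGAX and the same as that of ITGB2. Most of it came from CD14, at 13.2 to 18.03 and 4.54 to 4.71 CPM. CD3E stayed at or below 0.0284 CPM and SPI1 at or below 0.0819, and PTPRC was at 0.674 to 1.04 CPM in parental+siNT and at most 0.0289 in TKO+siNT. Their part in the integrin differences was not tested. ITGB2 itself was at 33.03, 35.3 and 33.6 CPM in parental+siNT and at 18.9, 20.5 and 17.7 in TKO+siNT, with no overlap. Its log2 change was -0.87 (standard error 0.10, adjusted p = 4.15e-05).

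ITGA10, a collagen receptor chain of cartilage, had the largest fall of any expressed member. It was at 4.21, 6.69 and 4.72 CPM in parental+siNT and at 0.546, 0.498 and 0.404 in TKO+siNT. The groups lay wide apart. This was a log2 change of -3.45 (standard error 0.25, adjusted p = 1.35e-06). ITGA10 (ENSG00000143127, chromosome 1, 145891208 to 145910111) lies 82324 bases from TXNIP, the edited gene, which spans 145992435 to 145996579. Of the 16 other genes within 1 Mb of TXNIP at 1 CPM or more, 9 were called lower and 2 higher, with a median log2 change of -0.54. In the untreated libraries the 16 neighbours had a median of -0.13, from -0.74 to 0.61, and ITGA10 was at 0.994 and 0.633 CPM in parental cells and at 0.479 and 0.421 in TKO (log2 change -0.92, standard error 0.39, adjusted p = 0.218). The part of this stretch in the fall of ITGA10 was not tested.

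LAMA4 was called in opposite directions. It was at 1.41, 2.36 and 2.72 CPM in parental+siNT and at 0.661, 0.934 and 0.953 in TKO+siNT, with all knockout libraries below all parental libraries. The log2 change was -1.38 (standard error 0.28, adjusted p = 0.00242), whereas it was 1.70 in the untreated libraries. The endothelial markers CDH5 and VWF, which accompany LAMA4 in vessels, stayed at or below 0.105 and 0.446 CPM in every library. The neighbours of LAMA4 within 10 Mb had a median log2 change of 0.43 in the siNT libraries, opposite to that of the gene.

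Of the remaining called members, ITGA1 (0.84, adjusted p = 0.000398), LAMA1 (1.20, adjusted p = 0.00968), ITGA7 (1.10, adjusted p = 0.00692) and LAMA2 (0.93, adjusted p = 0.00232) had the largest rises on the log2 scale. Of these only ITGA1, at a mean of 42.4 CPM in TKO+siNT, was above 3 CPM. LAMA2 lay in a region of chromosome 6 with a median log2 change of 0.54 and was at 0.37 (adjusted p = 0.157) with the regional shifts taken out. ITGB4 (0.50) and LAMC1 (0.69) were also called higher. The parental library that stood apart had the lowest level of its group for both. The 4 basal cell markers read beside ITGB4 had a summed level of 38.3 to 40.8 CPM in TKO+siNT and of 14.98 to 19.04 in parental+siNT, most of it COL17A1. TP63, the defining factor of basal cells, was at 2.96 to 3.86 CPM and at 0.527 to 1.003, KRT5 and KRT14 were near 0 in both, and their part was not tested. ITGB8, an activator of latent TGF-beta, was lower by -0.84 (adjusted p = 0.00181), and ITGB1 and ITGB5 by -0.33 and -0.32. The calls of ITGB1, ITGB4, ITGB5 and LAMC1 were lost in some alternatives, with adjusted p-values of up to 0.134, 0.0810, 0.106 and 0.194. LAMC1 lost its call when any 1 of the 3 TKO+siNT libraries was left out, ITGB4 without replicate 2 or 3 of that group, and ITGB5 without replicate 1 or 3. ITGB1 lost its call in the same 3 cases, and both ITGB1 and ITGB5 without parental+siNT replicate 2 or 3. ITGA3, the most abundant member, had a log2 change of 0.01 (standard error 0.11, adjusted p = 0.944).

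**Figure D3:**
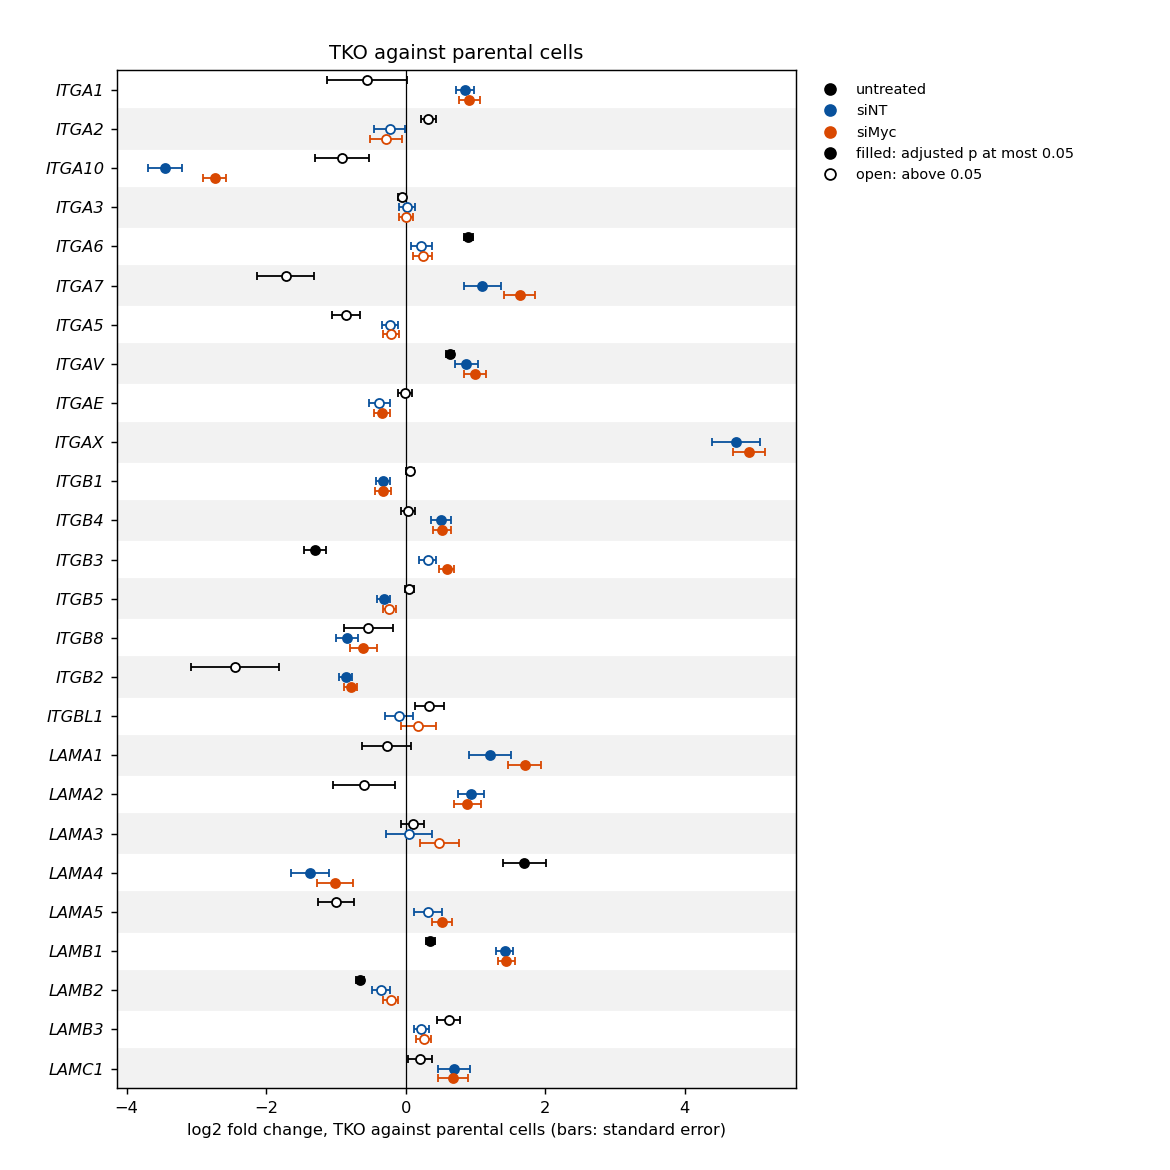
Log2 fold change of 26 expressed members between TKO and parental cells in the untreated, siNT and siMyc libraries, with standard errors as bars and filled circles for an adjusted p of at most 0.05. LAMA4 was at 1.70 untreated and at -1.38 after siNT, and ITGAX, which could not be tested untreated, lay at 4.74 after siNT.

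After siMyc LAMB1 and ITGAX were higher in TKO and ITGA10 was lower, in libraries other than those with siNT. By edgeR 11 members were called higher in TKO and 6 lower, where 40.6% of all genes were called, 18.8% as higher and 21.7% as lower. The median log2 change was 0.25 for the members and -0.01 over all genes. LAMB1 was at 228, 241 and 237 CPM in TKO+siMyc and at 96.7, 96.0 and 68.9 in parental+siMyc (log2 change 1.44, standard error 0.12, adjusted p = 9.82e-07). ITGAX was at 5.001, 6.01 and 4.85 CPM and at 0.228, 0.164 and 0.120 (4.92, adjusted p = 2.08e-09). ITGA10 was at 0.995, 0.707 and 0.892 CPM and at 6.24, 5.79 and 5.40 (-2.74, adjusted p = 3.25e-08). In all 3 genes the populations were again far apart with no overlap. LAMA1 (1.70), ITGA7 (1.63), ITGAV (0.99), ITGA1 (0.91), LAMA2 (0.88), LAMC1 (0.67), ITGB3 (0.58), LAMA5 (0.52) and ITGB4 (0.52) were the others called higher on the log2 scale. With the regional shifts taken out, LAMA2 stood at 0.27 (adjusted p = 0.274) and ITGAV at 0.62 (adjusted p = 0.00390). LAMA4 (-1.02), ITGB2 (-0.79), ITGB8 (-0.61), ITGAE (-0.34) and ITGB1 (-0.33) were the others called lower. Without parental+siMyc replicate 3, which stood apart, 14 were higher and 10 lower, while the genes called went from 9558 to 11354, with 5274 higher and 6080 lower. ITGAE, ITGB1, ITGB8, LAMA4, LAMA5 and LAMC1 lost their calls without 1 or more libraries of TKO+siMyc, and ITGB1 and ITGB8 also without parental+siMyc replicate 1 or 2, with adjusted p-values over all alternatives of up to 0.122, 0.156, 0.124, 0.0538, 0.0842 and 0.124 in this order.

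Whether the effect of the knockout differed between the untreated and the siNT libraries was tested as a difference of the 2 changes in 1 fit. By edgeR 8 members had such a difference, and 14.1% of all genes did. The untreated change was the higher one for ITGA10 (a difference of 2.53 on the log2 scale, adjusted p = 0.00258), LAMA4 (3.08, adjusted p = 0.000480) and ITGA6 (0.67, adjusted p = 0.0430). It was the lower one for ITGA7 (-2.82, adjusted p = 0.00174), ITGB3 (-1.61, adjusted p = 0.000179), LAMA2 (-1.53, adjusted p = 0.0235), LAMB1 (-1.06, adjusted p = 0.000856) and ITGAX (adjusted p = 0.00529). The levels of the parental cells moved as well. LAMB1 was at 217 and 205 CPM in untreated parental cells and at 67.95 to 96.1 after siNT, whereas TKO stayed between 228 and 292 in all of its libraries. ITGA10 was at 0.994 and 0.633 CPM in untreated parental cells and at 4.21 to 6.69 after siNT. The siRNA treatment and the read type (1 read or a pair) changed together between these libraries, as did the Ensembl release in parental cells only, and their parts cannot be told apart. ITGA6 is the member whose length differed between the releases.

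**Figure D4:**
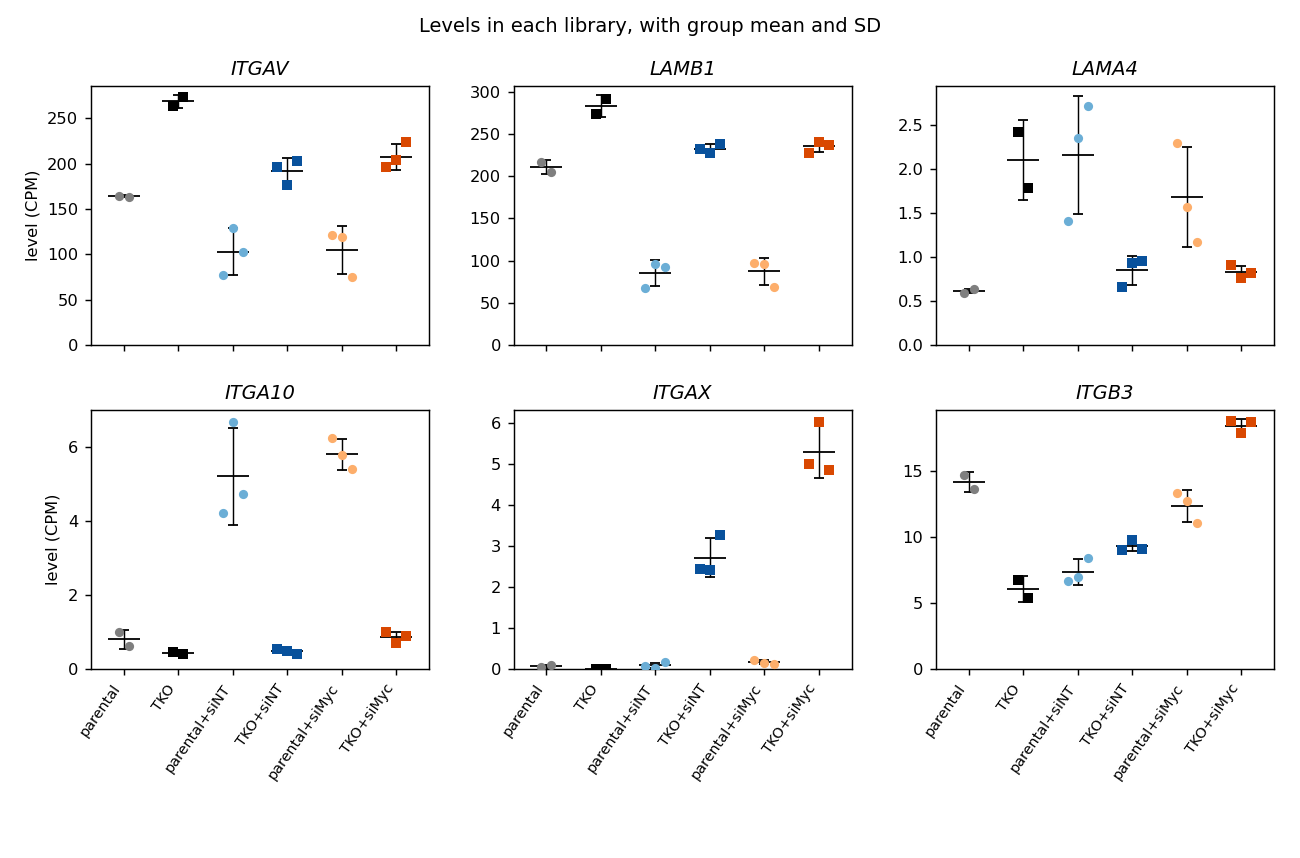
Levels in CPM of 6 members in each library, with the group mean and SD (n = 2 untreated, n = 3 with siRNA). LAMB1 lay between 67.95 and 96.7 CPM in the 6 siRNA libraries of parental cells and above 200 in all other libraries, and ITGB3 was highest in TKO+siMyc.

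The effect of Myc knockdown was compared first in TKO cells. Of the 27 expressed members 18 were called higher after siMyc and 0 lower by edgeR, where 13.3% of all genes were called higher and 13.9% lower, or 27.2% in all. DESeq2 called 17 higher and 0 lower, and 20 members had an unadjusted p under 0.05 with edgeR. Over all 22450 genes tested, DESeq2 called 5620, and 7988 had an unadjusted p under 0.05 with edgeR. The median log2 change was 0.26 for the members, 0.32 for the integrin genes and 0.22 for the laminin genes, against 0.01 over all genes tested. Most changes were small, and the largest was close to a doubling. In a fit of all 12 siRNA libraries together, 7 members were called higher and 0 lower, and the libraries that stood apart were part of that fit. No member was called lower when a library was left out, except without TKO+siMyc replicate 3, when 1 was called lower and 17 higher.

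ITGB3 (ENSG00000259207, chromosome 17, 47253827 to 47313743) had the largest rise. It was at 9.06, 9.81 and 9.13 CPM in TKO+siNT and at 18.8, 17.9 and 18.7 in TKO+siMyc, with a gap between the groups far wider than the spread within them. The log2 change was 0.99 (standard error 0.08, adjusted p = 5.41e-09 by edgeR). Of the 4 platelet markers read beside it, GP9 and PPBP were at 0 in every library, PF4 reached 0.0934 CPM in TKO+siNT and 0.0816 in TKO+siMyc, and GP1BA reached 0.0311 and 0.0743. Their summed level was 0 to 0.125 CPM in TKO+siNT and 0.0568 to 0.149 in TKO+siMyc, and their part was not tested. ITGAX rose from 2.44, 2.43 and 3.26 CPM to 5.001, 6.01 and 4.85, a log2 change of 0.96 (standard error 0.14, adjusted p = 1.42e-05). CD14 moved the same way, from 4.54 to 4.71 CPM up to 7.83 to 9.95, and its part was not tested.

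ITGA10 and ITGA7 also rose. ITGA10 went from 0.546, 0.498 and 0.404 CPM to 0.995, 0.707 and 0.892 (0.84, standard error 0.27, adjusted p = 0.0236), and it remained far under its level in the siRNA libraries of parental cells. ITGA7, a laminin receptor chain of muscle, went from 1.15, 1.46 and 0.982 CPM to 2.02, 2.503 and 1.81 (0.82, standard error 0.19, adjusted p = 0.00250). LAMA1, the alpha chain of embryonic laminin-111, went from 2.59, 1.90 and 2.48 CPM to 3.58, 3.97 and 3.52 (0.66, standard error 0.14, adjusted p = 0.00107). These 3 genes were low in all libraries. ITGB8 went from 2.44, 1.87 and 2.34 CPM to 2.81, 2.88 and 4.26 (0.59, standard error 0.17, adjusted p = 0.0116), so that 1 siMyc library lay well above the other 2. The call of ITGB8 was lost without that library, TKO+siMyc replicate 3 (0.36), or without TKO+siNT replicate 2, and that of ITGA10 without TKO+siMyc replicate 1 or TKO+siNT replicate 3. Over all alternatives their adjusted p-values went up to 0.105 and 0.103.

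The abundant members rose less. LAMB2 was at 249, 279.7 and 255 CPM in TKO+siNT and at 399, 388 and 346 in TKO+siMyc (0.53, standard error 0.06, adjusted p = 3.33e-07). Of the laminin receptor chains, ITGA3 rose by 0.31 (adjusted p = 5.25e-05) from a mean of 2224 to 2756 CPM and ITGB4 by 0.38 (adjusted p = 2.39e-05) from 298 to 387. Their ligand genes LAMA3 and LAMB3 changed by 0.25 and 0.19 on the log2 scale, both past the threshold. LAMB3 lost its call without replicate 1 or 3 of TKO+siNT or replicate 1 or 2 of TKO+siMyc, with adjusted p-values over all alternatives of up to 0.257. LAMA5 (0.27), LAMC1 (0.26), ITGB2 (0.41), ITGB5 (0.32), ITGA1 (0.26) and ITGA5 (0.24) were also called higher. LAMB1 (0.02, adjusted p = 0.837), LAMA2 (-0.02), LAMA4 (-0.03), ITGA2 (-0.05) and ITGAE (-0.04) had values close to 0. ITGB1, ITGA6 and ITGAV were at 0.14, 0.12 and 0.12 with adjusted p-values of 0.0777, 0.124 and 0.158. ITGA6, which held the E-box match, was thus not called here. Over the alternatives its adjusted p went down to 0.0346.

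In parental cells no member passed the threshold. By edgeR 0 of 27 expressed members were called after siMyc, with 5 at an unadjusted p under 0.05, and DESeq2 called 2, both higher. Over all 23728 genes tested, 3462 had an unadjusted p under 0.05 with edgeR, and DESeq2 called 1110. Over all genes 0.594% were called, 0.24% as higher and 0.354% as lower. The log2 change was above 0 for 24 of the 27 members, with a median of 0.17 against -0.002 over all genes. ITGB3 had the largest change among members above 1 CPM, from 6.66, 6.96 and 8.45 CPM in parental+siNT to 13.4, 12.7 and 11.0 in parental+siMyc. These libraries did not overlap, and the log2 change was 0.73 (standard error 0.13, adjusted p = 0.0586).

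The pair of parental libraries that stood apart weighed on this comparison. For 16 of the 27 expressed members both libraries of the pair were below the other 4 siRNA libraries of parental cells. For ITGA7 and ITGAE both were above. Of the 13448 genes at 1 CPM or more, 3932 (29.2%) were below in this way and 2718 were above. LAMA3 was at 22.9 and 24.0 CPM in the pair and at 50.9 to 70.6 in the other 4, and LAMC1 was at 177 and 221 against 329 to 425. The pair held 1 library of each treatment, so it added to the spread within both groups. With a factor for the pair, which was added after the data had been seen, 14 members were called higher and 0 lower, where 13.7% of all genes were called higher and 13.1% lower, or 26.8% in all. With the pair left out 13 were called higher and 0 lower, where 9.94% were called higher and 10.9% lower, or 20.8% in all. The median change of the members was 0.18 in either case.

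With the factor, ITGB3 was at 0.73 (standard error 0.08, adjusted p = 6.11e-10) in parental cells. LAMB2 was at 0.41 (standard error 0.04, adjusted p = 7.25e-11), ITGB4 at 0.38 (adjusted p = 2.69e-09), ITGB2 at 0.34 (adjusted p = 2.08e-07) and ITGA3 at 0.34 (adjusted p = 3.58e-08). LAMB3 was at 0.17 and called, whereas LAMA3 was not. ITGA6 and ITGB1, which were not called in TKO, were called higher in parental cells with the factor. With the pair left out ITGB1 was called and ITGA6 was not.

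**Figure D5:**
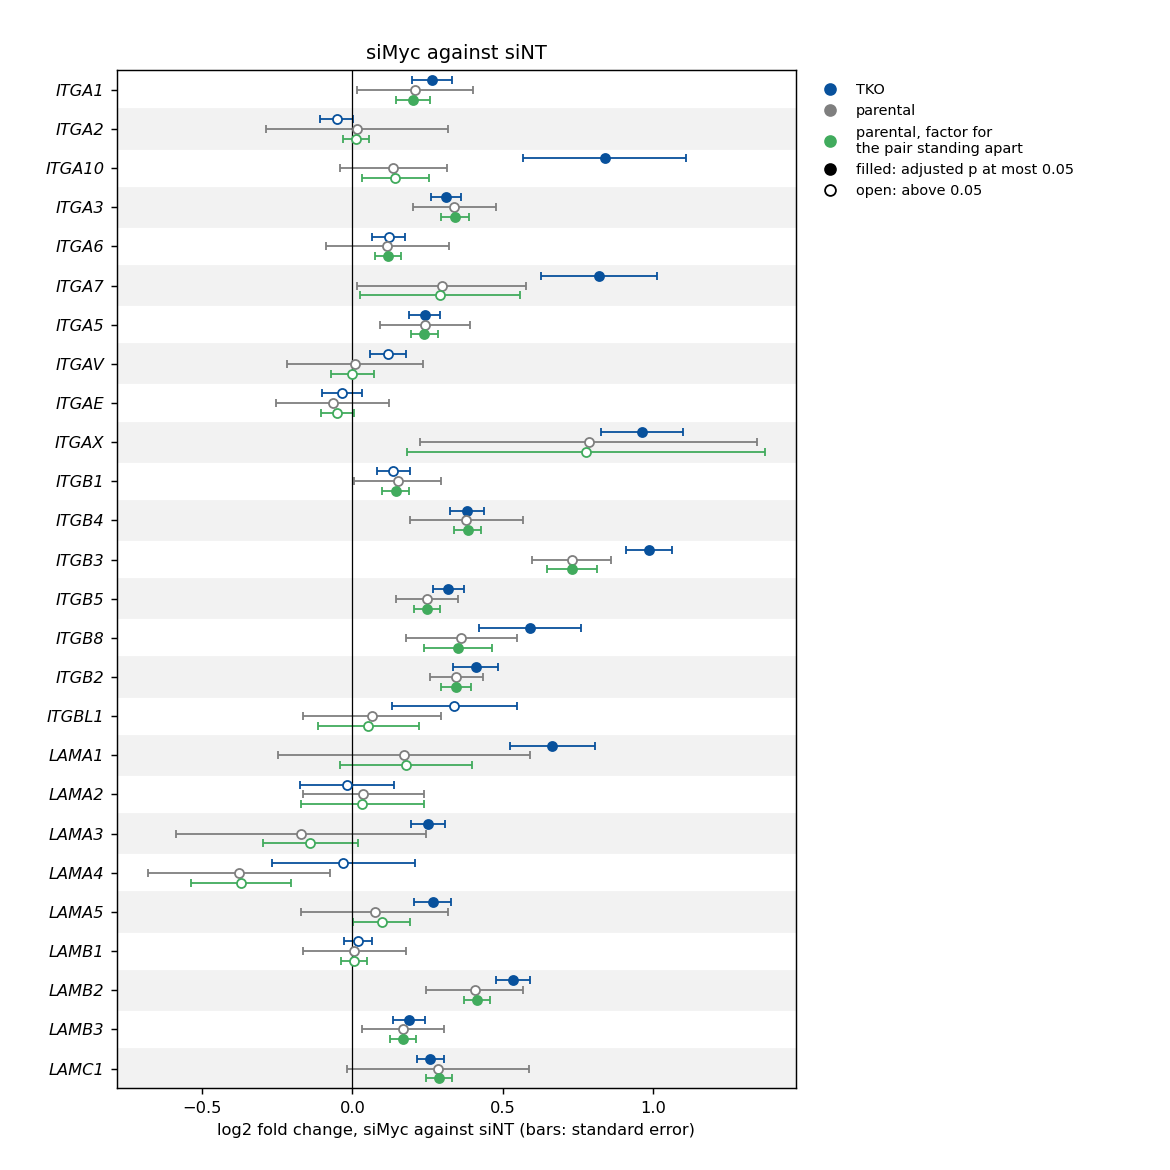
Log2 fold change of 26 expressed members after siMyc against siNT in TKO, in parental cells, and in parental cells with a factor for the pair of libraries that stood apart, with standard errors as bars and filled circles for an adjusted p of at most 0.05. Filled circles numbered 17, 0 and 13, and all of them lay above 0.

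A call in one population and not in the other does not show that the responses differed, and the difference itself was tested in 1 fit of the 12 siRNA libraries. By edgeR 0 members and 0 of all genes, or 0%, had a different response at an adjusted p of at most 0.05. At an unadjusted p under 0.05 there was 1 member, ITGA10, and 1039 genes, and DESeq2 called 0 members and 6 genes. The difference for ITGA10 was 0.73 on the log2 scale, with a 95% interval from 0.11 to 1.35. For ITGB3 it was 0.29, with an interval from -0.02 to 0.59. The median width of the intervals was 1.012 over the 27 members, against a median response of 0.26 in TKO, so a difference of the size of that response was not detectable for most of them. With the factor for the pair the median width was 0.36 and 0.57% of all genes were called, and without the pair 0.252%, in both cases with 0 members. The lowest adjusted p of a member with the factor was 0.323, for LAMA3, whose difference was 0.42 with an interval from 0.14 to 0.69. The response was the higher one in TKO for 25 of the 27 members without the factor and for 23 with it. With the factor 5 intervals did not hold 0, those of ITGA10 (0.73), ITGB3 (0.29), LAMA1 (0.52), LAMA3 and LAMB2 (0.15), and all 5 lay above 0.

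The partners of integrins and laminins were read from 7 lists. Proteins that join laminin in the basement membrane, such as type IV collagens and perlecan, moved with the members after siMyc in TKO. Of 15 expressed genes 10 were called higher by edgeR and the other 5 were not called, with a median log2 change of 0.42. Over all genes 13.3% were called higher and 13.9% lower in this comparison. HSPG2, which codes for perlecan, went from 178 ± 5.21 CPM (SD, n = 3) to 311 ± 34.5 (log2 change 0.81, adjusted p = 4.21e-09). Of 25 other integrin ligands 15 were called higher and the other 10 were not called, with a median of 0.38, among them COL1A2 (1.51), VTN (1.17) and ADAMTSL4 (1.15). In parental cells with the factor for the pair these lists had 10 of 15 and 18 of 25 genes called higher. With that factor 13.7% of all genes were called higher and 13.1% lower. Without the factor, ADAMTSL4 (0.94, adjusted p = 0.0391) was the 1 gene of both lists that edgeR called there.

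Genes on the inner side of the adhesions were called in both directions. For siMyc in TKO, the share over all genes was 13.3% higher and 13.9% lower. Of 33 integrin activators and adaptors 12 were called higher and 3 lower after siMyc in TKO, with a median log2 change of 0.11. FERMT1, the epithelial kindlin that activates integrins, fell by 1.26 on the log2 scale (adjusted p = 2.16e-09), and LIMS2, a partner of integrin-linked kinase, rose by 0.66. Of 24 focal adhesion kinases and their partners 5 were higher and 2 lower. Of 12 tetraspanins and other membrane partners 6 were higher, among them CD63 (0.49) and CD9 (0.41), and PLAUR was lower. Of 7 other laminin receptors 3 were higher and 2 lower, RPSA by -0.57 and SDC1 by -0.40. RPSA is a ribosomal protein that was first named as a laminin receptor. In the hemidesmosome ITGB4 and CD151 were the 2 of 6 genes called higher.

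Between the populations after siNT some of these partners differed more than any member. VCAM1, a ligand of the receptor with ITGA4 and ITGB1, was at 38.5 ± 0.846 CPM (SD, n = 3) in parental+siNT and at 0.146 ± 0.0844 in TKO+siNT (log2 change -8.03, adjusted p = 9.01e-10 by edgeR), while ITGA4 itself was near 0 in both. TNS1, an adaptor between integrins and actin, had a log2 change of 6.51 after siNT and its relative TNS4 one of -5.24. Among the 33 activators and adaptors 8 were called higher and 8 lower there. In the untreated libraries TNS1 changed by 3.90 (adjusted p = 0.0386 by edgeR). It was then at 24.4 ± 17.5 CPM (SD, n = 2) in TKO and at 1.55 ± 0.43 in parental cells. NTN4, a laminin-like protein that binds LAMC1, was lower in TKO by -3.62 in the untreated and by -3.89 in the siNT libraries. Dystroglycan, coded by DAG1, was higher by 1.24 and SPP1, the RGD ligand osteopontin, by 3.68 after siNT. Their lists were called in both directions there. Of 7 other laminin receptors 2 were higher and 4 lower, among them MCAM by -1.76, with a median log2 change of -0.69. Of 25 other integrin ligands 9 were higher and 8 lower, with a median of -0.07. In the hemidesmosome list 2 of 6 genes were higher after siNT and 1 was lower, CD151 by -0.78. COL17A1, a collagen of the hemidesmosome, was higher by 1.14 there. Of the other basal cell markers, TP63 was at 2.96 to 3.86 CPM in TKO+siNT and at 0.527 to 1.003 in parental+siNT. The keratins KRT5 and KRT14 stayed at or below 0.180 and 0.491 CPM in every library. Of the 15 expressed basement membrane partners 5 were higher and 6 lower after siNT, with a median of 0.04. Over all genes 16.1% were called higher and 20.7% lower there.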

How the data were processed

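The authors aligned reads to GRCh38 with STAR and assigned them to genes with featureCounts 1.6.3 (reverse-stranded, each read given to the gene it overlapped most), with Ensembl release 102, or per the file headers release 104 for the siRNA libraries of parental cells. They deposited raw counts, with no normalization. Members, lists and alternatives were chosen with earlier results of these data known. For each comparison edgeR 4.0.16 (R 4.3.3) was run on genes whose counts added up to more than 5 (TMM, robust quasi-likelihood test, Benjamini-Hochberg over all genes tested, threshold 0.05). The 5 comparisons and 2 differences of changes had no covariates, and the steps were tested on simulated data. Levels are CPM with TMM factors over all 16 libraries. Symbols were found for 96.7% of identifiers, and the promoter sequences are from RefSeq on GRCh38.p14. A member, a marker and a neighbouring gene are counted but not reported by name here. Every other expressed member past the threshold was named, with the values of every library for up to 6 in each direction. From each list, up to 3 called genes in each direction could be named, and IDs with fewer than 1 CPM in every group were left out. Further members and the neighbours of ITGA10 were named after their values were seen. At these depths 3 counts correspond to 0.0502 to 0.158 CPM, which covers counting error only. Alternatives were the Wald test of DESeq2 1.42.0, its size factors, other filters, a replicate block, 1 fit of 12 libraries, thinned libraries, regional offsets and each library left out, and after seeing the data a factor for a pair of libraries, that pair left out and genes of equal length in both releases.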

Additional observations from a re-analysis of the deposited data

Results flagged for a closer look

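The effect of the knockout on 8 members differed between the untreated and the siNT libraries by edgeR's test of the difference, in which the treatment, the read type and, in parental cells only, the Ensembl release changed together. ITGA6 is the member whose length differed between the releases. On the log2 scale the untreated change minus the siNT change was 2.53 for ITGA10, 0.67 for ITGA6 and 3.08 for LAMA4. It was -2.82 for ITGA7, -1.61 for ITGB3, -1.53 for LAMA2 and -1.06 for LAMB1. For ITGAX the adjusted p of the difference was 0.00529, and no size is given because both untreated TKO libraries had 0 counts. The calls for ITGA10, ITGA7, ITGB3, LAMA4 and LAMB1 held in every alternative, ITGAX lost its call in 1 of 14 alternatives, LAMA2 in 5 of 15 and ITGA6 in 11 of 15.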

How the results depend on the processing

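No called member reversed its direction in any alternative run. Of the called members, 0 of 6 held in every alternative in the untreated comparison, 10 of 16 after siNT, 10 of 17 between the populations after siMyc, 7 of 18 for siMyc in TKO and 5 of 8 for the difference of the knockout effect. With each library left out in turn, the called members numbered 0 to 21 untreated, 11 to 21 after siNT, 12 to 24 between the populations after siMyc, 16 to 18 for siMyc in TKO, 0 to 0 for siMyc in parental cells and for the difference in response, and 5 to 12 for the difference of the knockout effect. All genes called numbered 0 to 7002, 6246 to 10875, 7353 to 11354, 4665 to 6923, 0 to 160, 0 to 0 and 1758 to 5066 in the same order. In 1 fit of the 12 siRNA libraries, siMyc in TKO had 7 members and 2493 genes called, and siMyc in parental cells had 2 and 1666. For siMyc in parental cells, DESeq2 called 2 members and 1110 genes, no filter on low counts gave 1 and 330, the factor for the pair 14 and 6363, and the pair left out 13 and 4673. The genes called there were 91 with DESeq2's size factors, 225 with more than 5 counts in every library and 1 with thinned libraries. For the difference in response, 6 genes were called by DESeq2, 147 with the factor and 63 without the pair. DESeq2 called 14 members and 4332 genes for the difference of the knockout effect. The cause was not tested. The deviations of same-numbered libraries had correlations from -0.81 to 0.63. The highest was that of replicate 2 of parental+siNT and parental+siMyc. The number was used as a pairing only in the replicate block. With a replicate block, 4 members and 904 genes were called untreated, 18 members and 8481 genes after siNT, 16 and 8182 between the populations after siMyc, 20 and 6829 for siMyc in TKO, 0 members and 0 genes for siMyc in parental cells, 0 for the difference in response and 8 members and 3158 genes for the difference of the knockout effect. ITGA4, ITGA8, ITGAL and LAMC3 had too few counts to be tested in any comparison.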
